A study of Homo sapiens with 20 samples.

Results

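The 10 genes described here encode antioxidant enzymes and regulators: the catalase gene CAT, the superoxide dismutase genes SOD1 and SOD2, the glutathione synthesis genes GCLC and GCLM, the thioredoxin pathway genes TXNRD1 and SRXN1, the heme oxygenase gene HMOX1, the quinone reductase gene NQO1, and NFE2L2, which encodes the transcription factor NRF2. They were chosen by name, as every probe whose RefSeq accession maps to 1 of the 10 symbols. This gave 10 of the 42405 probes of the array, 1 for each gene. The RNA came from HepaRG, a human hepatoma cell line of pseudodiploid karyotype that differentiates into hepatocyte-like and biliary-like cells. The 5 conditions had 4 arrays each, from independent biological replicates. Cells were collected at day 4 (D4) and day 15 (D15) of culture without DMSO, at day 30 without DMSO (D30 - DMSO), at day 30 after 2% DMSO from day 15 (D30 + DMSO), and at day 34, with DMSO withdrawn for the last 4 days (D34 ± DMSO). All of these cultures were kept in medium with serum, insulin and hydrocortisone. One cell line stands behind all of the arrays.

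In a resting cell KEAP1 holds NRF2 for degradation. Electrophiles and oxidants release NRF2, which pairs with a small MAF protein and binds antioxidant response elements in genes of glutathione synthesis, quinone reduction, thioredoxin reduction and heme breakdown. Superoxide dismutases turn superoxide into hydrogen peroxide, which catalase removes in the peroxisome and which glutathione and thioredoxin peroxidases remove elsewhere. Hepatocytes are rich in catalase and make much of the body's glutathione. SOD2, the mitochondrial dismutase, is also a known target of NF-kB.

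The core of the antioxidant response element, TGACNNNGC, was looked for on both strands of RefSeq promoter windows of GRCh38.p14, each running from 250 bases before to 50 bases after a gene start. Of all 35116 windows of this length, 13.3% held the core. The 10 genes had 13 windows, belonging to 8 of the genes, and 3 of the 13 held the core: the window of GCLM and both windows of TXNRD1. The windows of CAT, SOD2, NQO1, GCLC, SRXN1 and NFE2L2 did not have these letters. Sequence outside the windows was not searched, so an element farther from a gene start would be missed. SOD1 and HMOX1 were not searched. The windows of GCLM and of the upstream start of TXNRD1 are shown because they hold the core, and those of GCLC and CAT because these genes changed with DMSO. Each sequence runs 5′ to 3′ on the strand of its gene, with the core in capitals. The strand is minus for GCLM and GCLC and plus for TXNRD1 and CAT.
GCLM, chr1:93909381-93909680: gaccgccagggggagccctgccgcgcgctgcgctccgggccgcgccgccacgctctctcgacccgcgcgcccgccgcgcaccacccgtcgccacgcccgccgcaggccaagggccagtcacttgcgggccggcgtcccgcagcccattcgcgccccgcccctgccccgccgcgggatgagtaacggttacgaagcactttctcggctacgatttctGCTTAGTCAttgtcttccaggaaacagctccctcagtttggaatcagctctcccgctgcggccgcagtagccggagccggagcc
TXNRD1, chr12:104215529-104215828: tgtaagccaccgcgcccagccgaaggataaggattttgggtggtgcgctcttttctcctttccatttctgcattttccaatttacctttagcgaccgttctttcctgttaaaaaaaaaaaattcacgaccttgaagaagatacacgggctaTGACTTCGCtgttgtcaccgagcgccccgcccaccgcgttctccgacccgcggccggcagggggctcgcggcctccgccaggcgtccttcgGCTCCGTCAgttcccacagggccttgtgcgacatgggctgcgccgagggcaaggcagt
GCLC, chr6:53545052-53545351: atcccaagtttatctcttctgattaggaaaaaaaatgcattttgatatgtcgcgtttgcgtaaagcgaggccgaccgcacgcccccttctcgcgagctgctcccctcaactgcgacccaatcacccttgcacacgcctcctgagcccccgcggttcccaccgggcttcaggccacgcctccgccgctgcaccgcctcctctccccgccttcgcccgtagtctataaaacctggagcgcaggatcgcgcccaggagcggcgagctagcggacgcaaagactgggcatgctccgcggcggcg
CAT, chr11:34438684-34438983: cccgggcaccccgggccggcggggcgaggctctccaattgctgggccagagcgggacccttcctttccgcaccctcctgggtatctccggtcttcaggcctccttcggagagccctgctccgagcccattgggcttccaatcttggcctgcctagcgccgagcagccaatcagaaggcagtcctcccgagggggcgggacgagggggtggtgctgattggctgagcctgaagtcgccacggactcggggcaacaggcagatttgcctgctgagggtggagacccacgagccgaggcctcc
The core of GCLM started at base 217 of the window and lay on the opposite strand. TXNRD1 had a core at base 152 on its own strand and a core at base 243 on the opposite strand.

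Values are log2 intensities relative to the 75th percentile of the same array, so that 0 is the 75th percentile. Only probes that every array of some condition read well above background were tested. This held for 8 of the 10 genes, each of them well above background on all 20 arrays with no saturated spot. The same filter left 22214 genes in all. A change between a pair of conditions was called at a Benjamini-Hochberg adjusted p below 0.005 in limma, over all tested genes, and more than 2-fold. The 75th percentile of the arrays ranged from 406.6 to 765.7 intensity units, and 56.9% to 71.2% of the probes were well above background. Replicate arrays correlated at 0.955 to 0.992. All 8 hepatocyte markers, such as ALB and TTR, were higher at D15 than at D4. Of 8 leukocyte markers 3 to 5, and of 8 endothelial markers 2 to 3, were well above background on all arrays of a condition. The arrays came from 4 slides. Those of D30 + DMSO lay on slides 3 and 4 only, 2 on each, whereas D30 - DMSO had 1 array on each slide. The main limma model had no term for slide. Slide 4, with 7 arrays and at least 1 of each condition, was scanned in a separate session and stood apart for several of the 8 genes. In all 5 conditions its GCLM values were below, and its TXNRD1 values above, those of every other array of the same condition. The loss of a call without slide 4 is therefore stated for named genes, in most cases with the value. Without slide 4, D30 + DMSO keeps 2 arrays, both of slide 3, and D15 keeps 1 array each of slides 2 and 3. Such a loss therefore goes together with fewer arrays, and the parts of slide and array number in it were not separated.

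NQO1 and NFE2L2 gave no usable level. The NQO1 probe was well above background on 8 of the 20 arrays, and on none of the 4 arrays of D30 - DMSO. The NFE2L2 probe was well above background on 13 of the 20 arrays. Mean scaled intensities of NQO1 lay between 7.54 at D30 - DMSO and 22.0 at D4. For NFE2L2, 3 of the D4 arrays lay between -5.69 and -4.68, and replicate 2 was at -0.55. Its 2 spots differed by a coefficient of variation of up to 137.7% on an array. No change is given for these genes, whose probes report too little signal here to show whether the transcripts changed.

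CAT, the peroxisomal enzyme that breaks down hydrogen peroxide, had the largest change over the 5 conditions among the 8 genes. At D4 the arrays read 1.00, 1.14, 1.10 and 1.28, and at D15 they read 2.02, 2.24, 2.21 and 2.82. At D30 - DMSO they read 2.44, 2.57, 2.50 and 2.19. With DMSO they read 3.71, 3.72, 4.07 and 3.71, and after DMSO removal 2.70, 2.29, 2.33 and 2.04. The D30 + DMSO arrays were therefore all above every other array, and the D4 arrays all below every other array, whereas D15, D30 - DMSO and D34 ± DMSO overlapped. CAT was the only 1 of the 8 genes called by the moderated F-test over the 5 conditions (Bonferroni p below 0.001 and more than 3-fold), with 6.38-fold between its highest and lowest condition and a Bonferroni-adjusted p of 6.73e-06. The F-test called 5.37% of all genes.

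**Figure D1:**
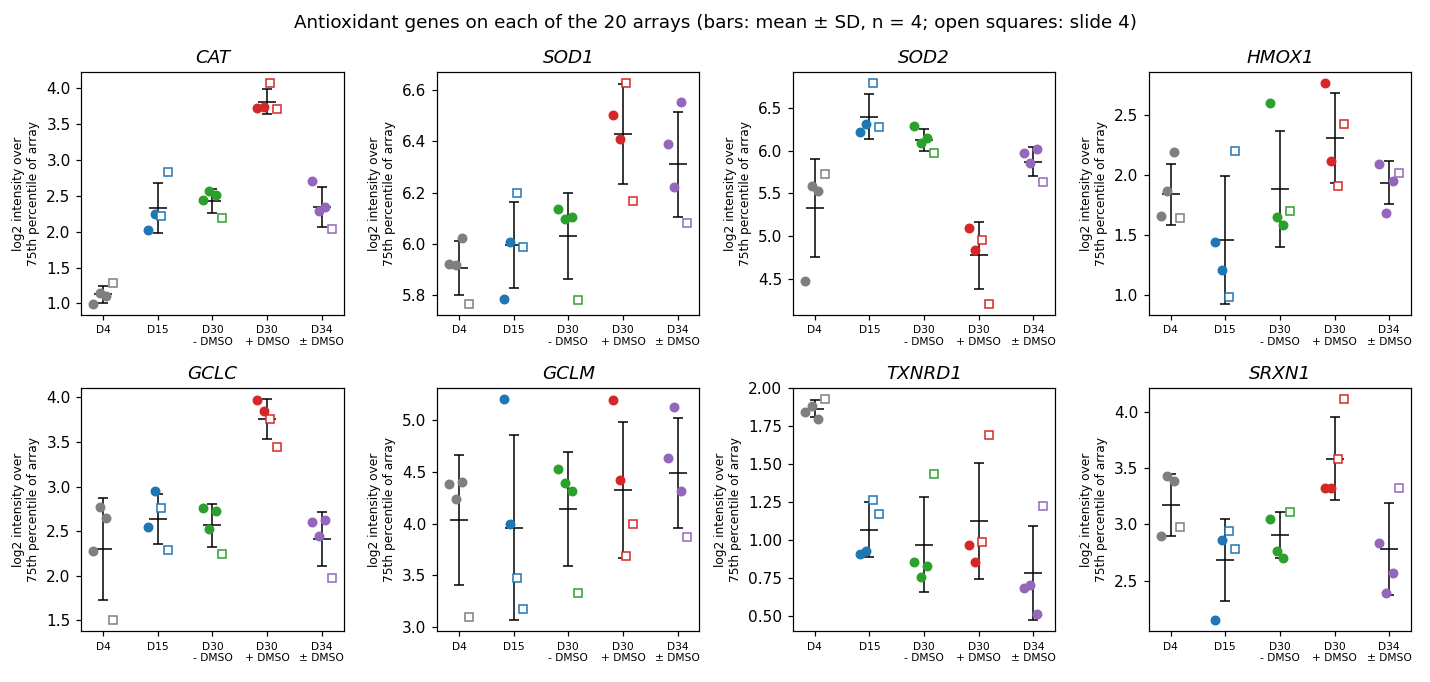
Each panel plots 1 gene on the 20 arrays, with the log2 intensity relative to the 75th percentile of the array on the vertical axis and the 5 conditions on the horizontal axis. Horizontal marks and bars are the mean and SD of 4 arrays, and open squares are arrays of slide 4. CAT at D30 + DMSO lies between 3.71 and 4.07, above all other arrays, SOD2 at D30 + DMSO lies between 4.21 and 5.10, and the open squares of GCLM are the lowest values of each condition.

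From D4 to D15, as the cultures differentiated without DMSO, 2 of the 8 genes rose and none fell. CAT rose by 1.20 (SE 0.17), or 2.29-fold, with an adjusted p of 3.02e-05 in limma. SOD2 rose by 1.07 (SE 0.24), or 2.10-fold, with an adjusted p of 0.00244. Over all genes, 5.79% were called higher and 3.7% lower in this comparison. The SOD2 arrays read 4.48, 5.58, 5.52 and 5.73 at D4 and 6.22, 6.31, 6.79 and 6.27 at D15. The groups did not overlap, and replicate 1 was the lowest at D4. The call of SOD2 was lost without D4 replicate 1 (0.79), D15 replicate 2 (1.10), D15 replicate 3 (0.94) or D15 replicate 4 (1.11), and without slide 4 (1.07, adjusted p = 0.0151). Over the same interval the 8 proliferation markers all fell, from a summed intensity of 5770 to 8430 down to 609 to 1510.

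TXNRD1, the reductase that regenerates cytosolic thioredoxin, did not reach the call from D4 to D15. Its arrays read 1.84, 1.89, 1.80 and 1.93 at D4 and 0.91, 0.93, 1.27 and 1.17 at D15. The groups did not overlap. The difference was -0.80 (SE 0.20), or 1.74-fold, with an adjusted p of 0.00515 in limma. With slide as a block it was -0.89 with an adjusted p of 0.000163, still below 2-fold. SRXN1, encoding sulfiredoxin, which repairs over-oxidized peroxiredoxins, had overlapping groups and a difference of -0.49 (SE 0.23). SOD1, HMOX1, GCLC and GCLM differed by between -0.38 and 0.34, with adjusted p from 0.363 to 0.945 in limma. The median change of the 8 genes was 0.01, against 0.04 over all genes.

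From D15 to D30 - DMSO, 2 further weeks without DMSO, none of the 8 genes was called by limma, and none had an unadjusted p below 0.05. The methods' t-test also called none. All 8 had overlapping groups, with differences from -0.27 for SOD2 to 0.42 for HMOX1. The background was as low: 0.0045% of all genes were called higher and 0% lower.

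DMSO addition, the comparison of D30 + DMSO with D30 - DMSO, asks how the genes differ with the solvent at the same culture age. The slides of these conditions also differed. CAT rose by 1.38 (SE 0.17), or 2.60-fold, with an adjusted p of 1.31e-05 in limma. GCLC, the catalytic subunit of the enzyme that limits glutathione synthesis, rose by 1.19 (SE 0.24), or 2.28-fold, with an adjusted p of 0.00149. SOD2 fell by 1.35 (SE 0.24), or 2.55-fold, with an adjusted p of 0.00047. Thus 2 of the 8 genes rose and 1 fell, where 1.73% of all genes were called higher and 4.18% lower. The median change of the 8 genes was 0.41, against 0.04 over all genes. Hepatocyte and biliary-like cells were measured together, so fewer cells of a type and less RNA per cell cannot be told apart. Of 8 hepatocyte markers, AHSG alone was called on addition and fell by 2.65, and the list median was 0.41. Of 6 biliary and progenitor markers tested, SPP1 fell by 1.78 and SOX9 rose by 1.31, the latter not called without slide 4 (adjusted p = 0.0122 in limma). On removal AHSG and SPP1 rose by 3.10 and 2.22 and SOX9 fell by 2.09. The part of these markers in the changes of the 8 genes was not tested.

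The GCLC arrays read 2.76, 2.53, 2.73 and 2.24 without DMSO and 3.97, 3.85, 3.76 and 3.44 with it. All DMSO arrays were above all others of the series for this gene. Within slides 3 and 4, which held both conditions, the difference was 1.15 and 1.36. Its adjusted p rose above 0.005, to at most 0.00696 in limma, without D30 - DMSO replicate 2 (1.18) or 4 (1.08), or without D30 + DMSO replicate 1 (1.12), 2 (1.16) or 3 (1.19). For CAT the difference within slides was 1.28 and 1.70, and the call held without each array in turn and without slide 4 (1.21).

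The SOD2 arrays read 6.29, 6.09, 6.15 and 5.97 at D30 - DMSO and 5.10, 4.84, 4.95 and 4.21 at D30 + DMSO. The groups did not overlap, and the lowest DMSO array, replicate 4, was on slide 4. Within slides 3 and 4 the difference was -1.32 and -1.39. Without slide 4 it was -1.21 and no longer called (adjusted p = 0.0132 in limma). The summed intensity of 8 stellate cell and fibroblast markers also differed between these conditions, at 3990 to 7600 without DMSO and 1110 to 1570 with it, and 4 of the 8 were well above background on all arrays of both conditions. DCN, which encodes the matrix proteoglycan decorin, held 71.5% to 91.9% of that sum without DMSO and was the only 1 of 5 tested markers called, falling by 2.97 (SE 0.33, adjusted p = 3.39e-06 in limma). Without slide 4, 2 of the 5 were called. The part of these markers in the SOD2 result was not tested.

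The other 5 genes were not called for DMSO addition. SRXN1 read 3.05, 2.76, 2.70 and 3.11 without DMSO and 3.32, 3.33, 3.58 and 4.11 with it, and its groups did not overlap. Its difference of 0.68 (SE 0.23), or 1.60-fold, had an adjusted p of 0.0465 in limma, and 0.49 without slide 4 had an adjusted p of 0.219. SOD1, the cytosolic copper and zinc dismutase, also had groups that did not overlap, from 5.78 to 6.14 without DMSO and from 6.17 to 6.63 with it. Its difference of 0.40 (SE 0.14) had an adjusted p of 0.0519. In all, 5 of the 8 genes had groups that did not overlap, against 25.1% of all genes. HMOX1, which opens the heme ring, differed by 0.42 with a 95% interval of -0.13 to 0.97. GCLM, the regulatory partner of GCLC, differed by 0.18 with an interval of -0.74 to 1.10, and TXNRD1 by 0.16 with an interval of -0.25 to 0.57. For GCLM this interval takes in a 2-fold rise and overlaps the interval of 0.69 to 1.69 for GCLC. With slide as a block the GCLM difference was 0.59 (adjusted p = 0.0597 in limma). Without slide 4 it was 0.40 (adjusted p = 0.514).

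**Figure D2:**
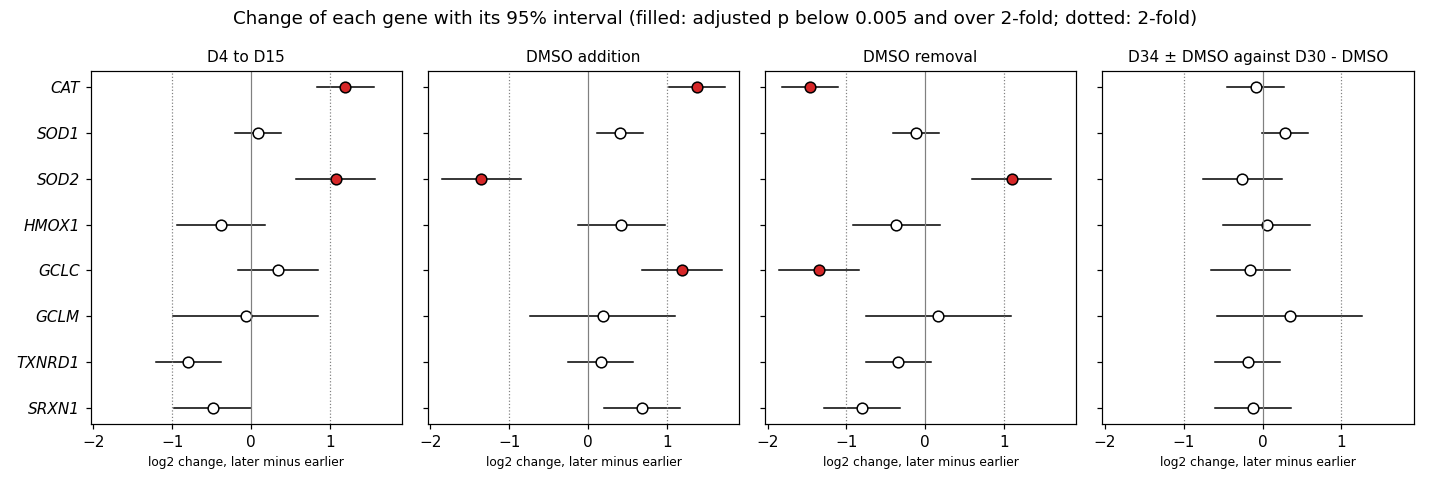
Each panel plots 1 comparison, with the log2 change of each of the 8 genes on the horizontal axis and its 95% interval from limma as a line. Filled points passed the call, and dotted lines mark 2-fold. CAT and GCLC are filled at 1.38 and 1.19 for DMSO addition and at -1.46 and -1.35 for removal, SOD2 is filled on the opposite side, and no point is filled for D34 ± DMSO against D30 - DMSO.

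DMSO removal, the comparison of D34 ± DMSO with D30 + DMSO, called 3 of the 8 genes. In this comparison the loss of DMSO goes together with 4 more days of culture. It shares the D30 + DMSO arrays with DMSO addition, so the values of these comparisons are not independent. CAT fell by 1.46 (SE 0.17), or 2.76-fold, with an adjusted p of 4.78e-06 in limma, and GCLC fell by 1.35 (SE 0.24), or 2.54-fold, with an adjusted p of 0.000414. SOD2 rose by 1.10 (SE 0.24), or 2.14-fold, with an adjusted p of 0.00235. Over all genes 4.96% were called higher and 2.1% lower. The GCLC arrays of D34 ± DMSO read 2.60, 2.45, 2.62 and 1.97, and those of SOD2 read 5.98, 5.85, 6.02 and 5.63. These were the 3 of the 8 genes whose groups did not overlap, against 23.9% of all genes. The 8 proliferation markers all rose on removal, from a summed intensity of 452 to 1170 up to 5340 to 12700. The stellate cell and fibroblast markers were at 3580 to 7350 after removal, of which DCN held 73.3% to 91.3%. The part of either marker list in these changes was not tested.

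The call of SOD2 on removal was the least stable of the 3. It was lost without D30 + DMSO replicate 2 (1.12) or 4 (0.91), without D34 ± DMSO replicate 1 (1.06), 2 (1.10) or 3 (1.05), and without slide 4 (0.98). Within slides 3 and 4 the SOD2 difference was 1.03 to 1.06. SRXN1 read 2.84, 2.39, 2.57 and 3.33 after removal, with a difference of -0.80 (SE 0.23) and an adjusted p of 0.0164 in limma, and its groups overlapped through 1 array of slide 4. SOD1, HMOX1, GCLM and TXNRD1 differed by between -0.37 and 0.16 and were not called.

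D34 ± DMSO against D30 - DMSO asks whether the genes differed between cells that had met DMSO and then lost it and cells that never met it. These conditions also differ by 4 days of culture. None of the 8 genes was called by limma, none had an unadjusted p below 0.05, and the methods' t-test called none. Over all genes, 1.31% were called higher and 0.212% lower. CAT differed by -0.09 with a 95% interval of -0.44 to 0.27, GCLC by -0.15 with an interval of -0.66 to 0.35, and SOD2 by -0.26 with an interval of -0.76 to 0.25. For these 3 genes the intervals leave out a 2-fold difference in either direction. For GCLM the interval of -0.57 to 1.27 does not. All 8 proliferation markers had a higher mean at D34 ± DMSO, and 7 of them were called. PLK1, higher by 2.63, was not (adjusted p = 0.0101 in limma). Without slide 4, 5 were called.

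GCLC and GCLM, whose products form 1 enzyme, were also set against each other on the same arrays. The difference between the GCLC and the GCLM probe on an array was taken so that a scaling factor of the array cancels. It has no meaning as a level, since the probes are different. Its change between conditions describes unequal change of the probes, but a slide effect on 1 probe does not cancel. On slide 4 the GCLM values were below those of all other arrays in 5 conditions, and the GCLC values in 4. Slide 4 held 2 arrays each of D15 and D30 + DMSO, and 1 array of each other condition. The part of slide in these changes was not separated. This pair and the next were chosen after their values had been seen, so their differences are given as a description, with no test. For GCLC over GCLM the mean was -1.58 ± 0.34 (SD, n = 4) at D30 - DMSO and -0.57 ± 0.53 (SD, n = 4) at D30 + DMSO. The change was 1.01 on addition, where the groups overlapped, and -1.51 on removal, where they did not. Without slide 4 these changes were 0.84 and -1.24. From D4 to D15 the groups overlapped, and the change was 0.41, or -0.07 without slide 4.

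SOD2 and SOD1 remove the same radical, in the mitochondrion and in the cytosol. The difference of SOD2 over SOD1 was between 0.29 and 0.60 on the D15 arrays, between -0.0015 and 0.19 at D30 - DMSO, and between -1.96 and -1.41 at D30 + DMSO. No D30 + DMSO array overlapped those of D30 - DMSO or D34 ± DMSO. The change was 0.98 from D4 to D15, -1.75 on DMSO addition and 1.21 on removal. Without slide 4 the changes were 1.13, -1.56 and 1.05.

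**Figure D3:**
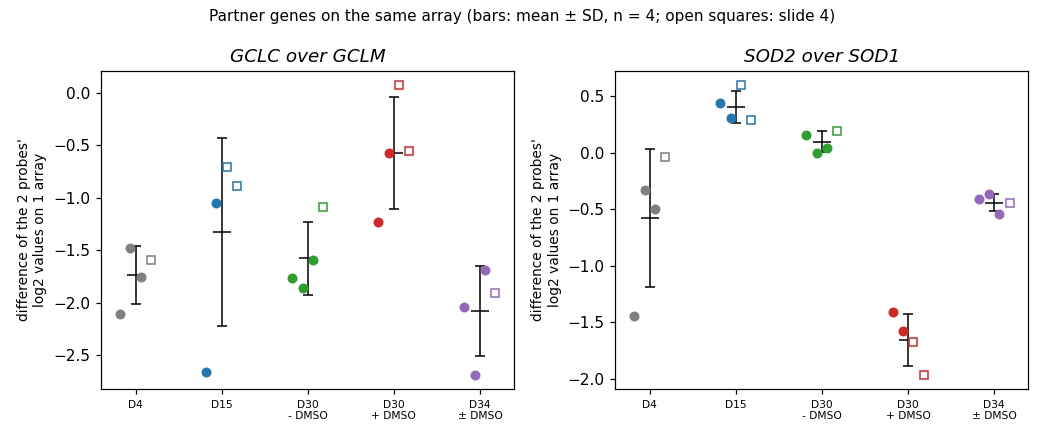
The vertical axis is the difference of the log2 values of 2 probes on the same array, GCLC minus GCLM on the left and SOD2 minus SOD1 on the right, over the 5 conditions. Bars are the mean and SD of 4 arrays, and open squares are arrays of slide 4. SOD2 over SOD1 lies between -1.96 and -1.41 on the D30 + DMSO arrays, below all arrays of D30 - DMSO and D34 ± DMSO, and GCLC over GCLM is widest at D15.

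The 8 genes did not follow a shared course over the 20 arrays. Of their 28 pairs, 3 had a Pearson r above 0.5 and 3 below -0.5. The highest was 0.761 for CAT and GCLC, and the lowest -0.659 for SOD2 and SRXN1. These are descriptions over arrays that share conditions and slides. Among all tested genes, those most like CAT were PRAP1 (r = 0.984) and GNMT (0.983), and those most like GCLC were CUL5 (0.963) and CERT1 (0.955). SOD2 was most like ZG16B (0.939) and SUSD2 (0.926), and SOD1 most like SCARB1 (0.955) and MRPL55 (0.926). GCLM, whose values were low on slide 4, was most like BMP8B (0.987) and PCED1B-AS1 (0.986). TXNRD1 was most like PEA15 (0.947) and CERS5 (0.946), and SRXN1 most like B4GALT4 (0.88) and PDXK (0.875). HMOX1 had the weakest match, with ATF3 (0.749) and INSIG1 (0.737).

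The genes around these 10 were followed through 8 lists of related genes, some of which share members. Their counts stand beside the shares of all genes given above, 1.73% called higher and 4.18% lower on DMSO addition, 4.96% and 2.1% on removal, and 5.79% and 3.7% from D4 to D15. For D34 ± DMSO against D30 - DMSO the shares were 1.31% and 0.212%. Of 14 regulators of NRF2 tested, 2 fell on DMSO addition and none rose. NFE2L3, a relative of NRF2, fell by 1.75 (SE 0.13, adjusted p = 3.97e-08 in limma), and MAFF, a small MAF partner, fell by 1.57 (SE 0.28, adjusted p = 0.000528). Without slide 4 the call of MAFF was lost (-1.49, adjusted p = 0.0131), which left 1. NFE2L3 rose by 1.64 on removal and had fallen by 1.71 from D4 to D15. KEAP1, the inhibitor of NRF2, differed by 0.21 (SE 0.14) on addition and -0.26 on removal, with adjusted p of 0.376 and 0.218. The median of the list was 0.14 on addition, against 0.04 over all genes.

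Of 28 other NRF2 targets tested, 4 rose on DMSO addition and none fell. EPHX1, the microsomal epoxide hydrolase, rose by 1.88 (SE 0.32, adjusted p = 0.000292 in limma). FTL, the ferritin light chain, rose by 1.33 (SE 0.22, adjusted p = 0.000283), and the aldo-keto reductase genes AKR1C3 and AKR1C1 rose by 1.13 and 1.04. The list had a median of 0.41. EPHX1 and FTL fell on removal, by 1.35 and 1.28. Without slide 4 the count on addition was 2, EPHX1 and FTL, and with quantile normalization also 2. AKR1C3 and AKR1C1 then rose by 0.92 and 0.87 without slide 4, below 2-fold. From D4 to D15 only SLC7A11, the cystine transporter that feeds glutathione synthesis, was called in this list, and it fell by 1.72 (SE 0.38, adjusted p = 0.00226). ABCC2, an export pump for glutathione conjugates, was higher by 1.23 at D34 ± DMSO than at D30 - DMSO, with an adjusted p of 0.00234.

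In the glutathione cycle 3 of 20 genes rose on DMSO addition and none fell. They were GPX2, a glutathione peroxidase, by 1.93 (SE 0.26, adjusted p = 3.30e-05 in limma), CTH, which makes cysteine from cystathionine, by 1.43, and HAGH, which returns glutathione in the glyoxalase pathway, by 1.28. CTH and the secreted peroxidase GPX3 fell on removal, by 1.12 and 1.10. GPX2 was still higher by 1.42 at D34 ± DMSO than at D30 - DMSO, with an adjusted p of 0.00217, but neither GPX2 nor ABCC2 was called there without slide 4. From D4 to D15, 4 genes rose, GPX2, GPX3, GLRX and CTH, and SLC7A11 fell. None of 19 thioredoxins and peroxiredoxins was called by limma on DMSO addition or removal, and 8 and 9 of them had an unadjusted p below 0.05, against 28.8% and 31.8% of all genes. With slide as a block, 1 rose and 1 fell from D4 to D15.

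CYBA, the membrane subunit shared by several NADPH oxidases, was among 11 tested genes of superoxide handling. It rose by 3.29 (SE 0.37, adjusted p = 5.20e-06 in limma) on DMSO addition and fell by 2.34 on removal. Its mean value was -5.18 at D30 - DMSO and -1.89 at D30 + DMSO, and 2 of the 4 D30 - DMSO arrays and all 4 D30 + DMSO arrays were well above background. The size of the rise therefore rests in part on arrays at background. On addition 1 of the 11 rose and 1 fell, and the same counts held on removal. From D4 to D15, 3 of the 11 rose and 1 fell. SOD3, the extracellular dismutase, rose by 1.15. The means of NOXO1 rose from -8.22 to -6.25 and those of NOXA1 from -1.42 to 0.06. NOXO1 lay between -9.14 and -7.27 at D4, where no array read a probe well above background below -6.86. The size of the NOXO1 rise therefore rests on D4 arrays at background. Neither NOXO1 nor NOXA1 was called without slide 4 (adjusted p = 0.0252 and 0.0057 in limma). Of 15 genes of heme and iron, FTL alone was called on addition, and FTL and the iron exporter SLC40A1 fell on removal, the latter by 1.24. Without slide 4 the call of SLC40A1 was lost (adjusted p = 0.0354 in limma), which left 1. From D4 to D15 SLC40A1 alone was called in this list and rose by 1.49. That call too was lost without slide 4 (1.33, adjusted p = 0.00597).

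Catalase is a peroxisomal protein, and of 39 peroxisome genes 6 rose on DMSO addition and none fell. The 4 largest were AGXT, the peroxisomal transaminase that removes glyoxylate, by 2.40 (SE 0.31, adjusted p = 1.93e-05 in limma), PIPOX by 1.57, EHHADH by 1.42 and the thiolase gene ACAA1 by 1.29. On removal 4 of the 39 fell, among them AGXT by 1.90, PIPOX by 1.46, SCP2 by 1.27 and ACAA1 by 1.19. EHHADH on addition (1.22) and SCP2 on removal (-1.15) were not called without slide 4. The list median was 0.54 on addition and -0.57 on removal. From D4 to D15, 10 rose and none fell, among them AGXT by 5.98 and HAO1 by 5.03. ACOX2 and DAO rose by 4.66 and 4.34, but at D4 only 2 of the 4 arrays for ACOX2 and 3 of the 4 for DAO were well above background, so that the sizes of these changes rest in part on arrays at background.

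SOD2 was set beside 20 other targets of NF-kB. On DMSO addition 11 of them fell and none rose. The chemokine genes CXCL1 and CXCL8 fell by 2.67 (SE 0.43, adjusted p = 0.000182 in limma) and 2.59 (SE 0.58, adjusted p = 0.00359). CCL2, a monocyte chemokine, fell by 2.20, and BIRC3, an inhibitor of apoptosis, by 2.14. The list median was -1.30, against 0.04 over all genes, and 17 of 20 means were lower. Without slide 4 the count was 6, and CXCL8 was not called (-2.28, adjusted p = 0.0272). On removal 3 rose, BIRC3 by 2.07, the adhesion molecule gene ICAM1 by 1.53 and CCL2 by 1.28, and the list median was 0.78. The count on removal was 1, BIRC3, without slide 4 and 5 with quantile normalization. Without slide 4 CCL2 differed by 0.74 on removal and ICAM1 by 1.00 (adjusted p = 0.111 and 0.0242 in limma). Between D4 and D15, where SOD2 rose, 1 of the 20 rose and none fell, and the list median was -0.09. At D34 ± DMSO against D30 - DMSO none was called by limma, and 9 had an unadjusted p below 0.05, against 15.3% of all genes. The list median there was -0.51, against -0.03 over all genes. With slide as a block or with quantile normalization 1 was called lower there.

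**Figure D4:**
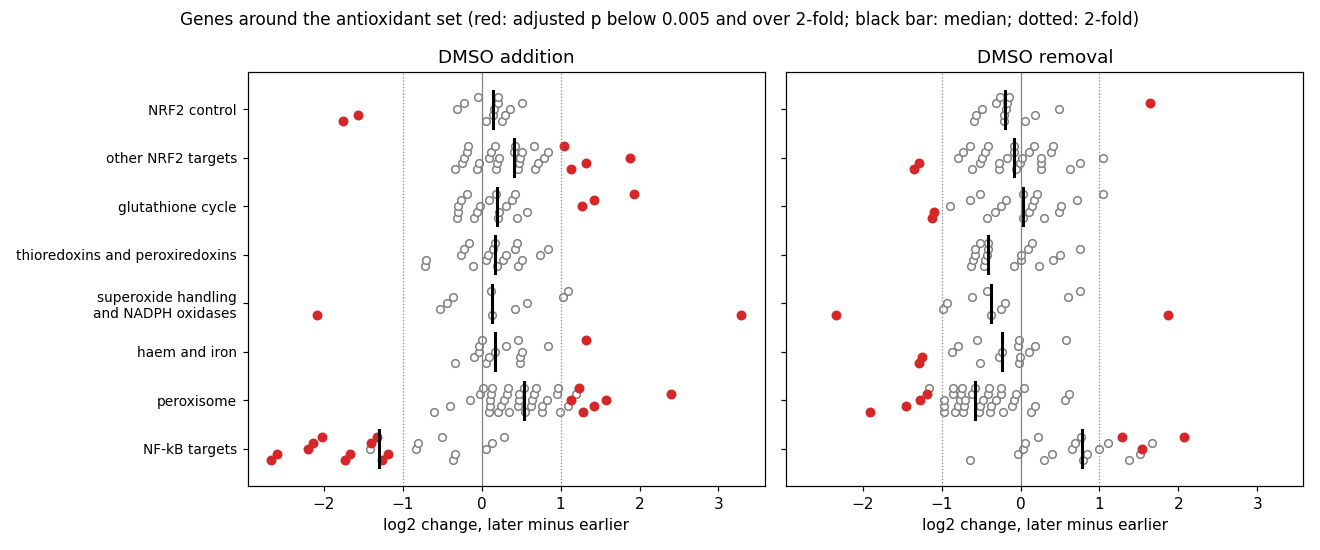
Each point is 1 gene of the list named on the vertical axis, with its log2 change on DMSO addition (left) or removal (right) on the horizontal axis. Red points passed the call, black bars are list medians, and dotted lines mark 2-fold. The NF-kB targets have their median at -1.30 on addition and 0.78 on removal, and the peroxisome genes at 0.54 and -0.57.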

How the data were processed

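HepaRG RNA of 4 biological replicates in each of 5 conditions was hybridized to 20 one-color Agilent SurePrint G3 8x60K arrays. The deposited Feature Extraction output gave the processed signal, an intensity that the authors left unscaled between arrays, along with median and background intensities and spot flags. The version was 10.7.3.1 in the submitters' processing notes and 10.7.1.1 in the file headers. The authors also deposited log2 values relative to a baseline, used as an alternative. They matched the processed signal on the present scale up to array shifts of at most 0.102 and a baseline for each probe, over 18200 genes well above background on all arrays.

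Spots without outlier flags were averaged per probe, brought to a shared 75th percentile (563.1), floored at 1 and taken to log2. The filter, well above background on every array of some condition, kept 26531 of 42405 probes. Probes were named through RefSeq transcripts of GRCh38.p14 (24826 named, 17579 not), and the probe of highest mean stood for each of 22214 genes. One limma 3.58.1 model (R 4.3.3, data.table version 1.17.8) was fitted over the 20 arrays. Pairs of conditions were called at over 2-fold with a Benjamini-Hochberg adjusted p under 0.005, and the F-test at a Bonferroni p below 0.001 and over 3-fold, which are the thresholds of the study's methods. The number of arrays limits the precision.

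The members, gene lists and motif were chosen with earlier results of these data known. Named genes were the 10 members, the 2 genes most like each tested member by Pearson r, and up to 4 of the largest called genes of a list in a comparison, apart from a gene that is not reported here. KEAP1 and the markers AHSG, SPP1, SOX9, DCN and PLK1 were named in addition, after their values had been seen. On simulated data for DMSO addition with 22214 genes, 50 genes each were changed 1.5-fold, 2-fold, 3-fold and 4-fold. Of these, 26% of the genes changed 2-fold and 88% of those changed 4-fold were called, with 0 false calls. Far fewer genes changed there than the 1314 called on DMSO addition in the data. The Benjamini-Hochberg adjusted p depends on how many genes change, so these percentages do not carry over to the data. The simulated noise was independent between genes and arrays, without slide effects, so false calls from slides were not covered. A true 2-fold change lies on the cutoff of the call. Alternatives were other normalizations, background correction, filters, floors, probe rules, tests, blocks for slide, session and replicate number, and the removal of each array. The removal of slide 4 was chosen after seeing the data.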

Additional observations from a re-analysis of the deposited data

Results flagged for a closer look

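Of the 40 groups of 4 arrays formed by the 8 tested genes and 5 conditions, 8 held an array whose gap to the nearest of the others exceeded the 95% critical value of Dixon's test. Chance flags about 1 in 20 groups. Of the arrays standing high, CAT was at 4.07 in D30 + DMSO replicate 3, SOD2 at 6.79 in D15 replicate 3 and HMOX1 at 2.60 in D30 - DMSO replicate 1. TXNRD1 stood high at 1.44 in D30 - DMSO replicate 4 and at 1.69 in D30 + DMSO replicate 4. Of the arrays standing low, SOD1 was at 5.78 in D30 - DMSO replicate 4, SOD2 at 4.48 in D4 replicate 1 and GCLM at 3.10 in D4 replicate 4. All but the HMOX1 array and the D4 array of SOD2 were on slide 4.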

How the results depend on the processing

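The number of the 8 genes called was recomputed under 14 other settings and without each of the 20 arrays. From D4 to D15 the count of 2 became 1 with no filter on dim probes, 1 with only the arrays compared, 1 without slide 4 and 0 with the methods' t-test. On DMSO addition and on removal the count of 3 became 1 each with the methods' t-test, CAT, and 2 each without slide 4. Before adjustment that t-test called 1, 3 and 3 genes at its threshold of 0.005. Leaving out 1 array gave 1 to 2 from D4 to D15 and 2 to 3 on addition and on removal. The cause of these losses was not tested. The other counts stayed at 0, and that of the F-test at 1.

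The replicate numbers were not used as pairs. Same-numbered arrays deviated together unevenly, with r on DMSO addition from -0.067 to 0.70. Between conditions the median r was 0.274 for same-numbered arrays and -0.169 for others. It was 0.387 for arrays of the same slide and -0.179 for others. The parts of replicate number and slide in these values were not separated. With the replicate number as a block, 2, 3 and 3 genes were called from D4 to D15, on addition and on removal, 0 in the other comparisons and 1 by the F-test. The replicate block moved no count over all genes past 1.5 times.

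Over all genes, the calls from D4 to D15, on addition and on removal were 2109, 1314 and 1568, against 1384, 659 and 855 with normexp background correction and 1105, 581 and 490 with the methods' t-test. Between D34 ± DMSO and D30 - DMSO they were 338, against 41 with that t-test and 171 with only the arrays compared. The F-test called 1193 genes, against 1803 at an adjusted p below 0.05 and 536 without slide 4. From D15 to D30 - DMSO 1 gene was called, against 0 to 10 in the other settings.

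Of 40 changes of a gene in a comparison, 12 changed sign in some setting, none of them called. GCLM from D4 to D15 became 0.23 with slide as a block, 0.20 with scan session as a block and 0.26 without slide 4, from D15 to D30 - DMSO -0.12, -0.091 and -0.19, and on removal -0.13, -0.11 and -0.12. HMOX1 at D34 ± DMSO against D30 - DMSO became -0.045 with slide as a block and -0.038 without slide 4, SOD1 from D4 to D15 -0.056 without slide 4, and TXNRD1 from D15 to D30 - DMSO 0.00037 with session as a block. Leaving out 1 array, GCLM ranged from -0.48 to 0.19 from D4 to D15, from -0.081 to 0.59 from D15 to D30 - DMSO, from -0.11 to 0.40 on addition and from -0.051 to 0.45 on removal. From D15 to D30 - DMSO, SOD1 ranged from -0.034 to 0.12 and GCLC from -0.19 to 0.035. TXNRD1 ranged from -0.033 to 0.31 on addition. At D34 ± DMSO against D30 - DMSO, CAT ranged from -0.21 to 0.015, HMOX1 from -0.048 to 0.29 and SRXN1 from -0.30 to 0.0069. Signal over background limited NQO1 and NFE2L2.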
